A study of Mus musculus with 11 samples.

Results

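The genes described here mark the endothelium, the cell layer that lines blood and lymphatic vessels. They are 38 named genes of the 31168 in the count table, 32 of blood endothelium and 6 of lymphatic endothelium, and were chosen by symbol. A gene was reported where its mean over the 11 libraries was at least 1 CPM, that is 1 count per 1000000 counts of the library after scaling. This held for 34 genes, 28 of blood and 6 of lymphatic vessels. The remaining 4 averaged below 1 CPM: Tal1 (0.467 CPM), Gpihbp1 (0.690 CPM), Sox17 (0.746 CPM) and Icam2 (0.916 CPM).

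Each library came from whole distal ileum, and all mice had been treated with dextran sodium sulfate, which injures the intestinal lining. The dIEC group (5 libraries) had the genotype H2-Ab1 fl/fl; Villin:Cre+, in which the villin promoter drives Cre recombinase in intestinal epithelial cells. The WT group (6 libraries) had the genotype H2-Ab1 fl/fl; Villin:Cre-, so these mice also carried the floxed alleles and received dextran sodium sulfate. No group without dextran sodium sulfate was analysed here, and the sources used here give neither age nor sex of the mice. H2-Ab1, which encodes a chain of an MHC class II molecule, measured 25.8 ± 9.82 CPM in dIEC and 82.7 ± 27.2 CPM in WT (SD, n = 5 and 6; two-sided exact permutation p = 0.00433, the smallest these groups allow). Its log2 fold change was -1.68 ± 0.28 (SE; edgeR adjusted p = 0.363). Total counts were 6603965 to 9681698 per library, of which 22.9 to 37.3% belonged to protein-coding genes (Lars2 left out). The blood endothelial genes held 1478 to 3911 counts of a library and the lymphatic genes 276 to 748.

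Endothelial cells form vessels under vascular endothelial growth factors (VEGF), which bind receptor tyrosine kinases, and angiopoietins, which bind the receptor Tie2 (gene Tek). In the small intestine, blood capillaries of the villus carry absorbed sugars and amino acids to the portal vein. Lymphatic vessels, which begin as a lacteal in each villus, carry absorbed fat. The transcription factors Erg and Fli1 belong to the ETS family, whose members bind DNA at the core letters GGAA and maintain the endothelial programme. Prox1 is the transcription factor that sets lymphatic identity, and VEGF-C acts on lymphatic vessels through VEGFR3, the product of Flt4.

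Upstream sequences were examined because ETS factors are themselves among the genes measured here. RefSeq promoter entries (GRCm38.p6) were found for 23 of the 38 genes, 32 promoters in all. The letters GGAA, or TTCC for the other strand, occurred in the 250 bases before the start in 28 of these 32 promoters (87.5%), against 93.4% of all 32851 mouse promoters in the table. The longer form AGGAAG, or CTTCCT, which contains that core, occurred in 11 of the 32 (34.4%), against 29.5% of all promoters. These matches are a description of letters and not of binding. None of the 3 genes chosen for display passed an adjusted p of 0.05 for dIEC against WT. Their log2 fold changes were -0.58 ± 0.23 for Cd34, -0.40 ± 0.17 for Reln and -0.03 ± 0.14 for Prox1 (SE; edgeR adjusted p = 0.433, 0.441 and 0.947). Stretches just upstream of these genes are shown. Each is written 5′ to 3′ on the strand of its gene, with the GGAA or TTCC letters in capitals. The Cd34 stretch is chr1:194938571-194938818 on the plus strand (248 bases), the Reln stretch chr5:22344706-22344955 on the minus strand and the Prox1 stretch chr1:190170828-190171077 on the minus strand (250 bases each).
Cd34: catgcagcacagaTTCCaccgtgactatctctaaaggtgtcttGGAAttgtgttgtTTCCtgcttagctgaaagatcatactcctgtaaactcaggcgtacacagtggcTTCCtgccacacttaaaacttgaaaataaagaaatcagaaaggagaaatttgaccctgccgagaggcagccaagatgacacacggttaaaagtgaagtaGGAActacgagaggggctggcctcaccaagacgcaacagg
Reln: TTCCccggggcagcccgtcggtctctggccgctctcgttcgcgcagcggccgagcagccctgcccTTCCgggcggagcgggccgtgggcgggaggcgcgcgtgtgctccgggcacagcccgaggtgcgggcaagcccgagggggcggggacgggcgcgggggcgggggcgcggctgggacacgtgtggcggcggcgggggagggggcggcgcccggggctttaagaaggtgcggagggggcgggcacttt
Prox1: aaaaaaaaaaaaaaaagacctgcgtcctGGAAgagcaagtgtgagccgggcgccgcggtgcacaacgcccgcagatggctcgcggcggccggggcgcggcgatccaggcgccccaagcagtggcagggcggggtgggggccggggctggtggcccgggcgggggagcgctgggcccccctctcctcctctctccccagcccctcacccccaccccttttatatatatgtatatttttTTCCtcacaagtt
The Cd34 stretch held 5 such cores, and the Reln and Prox1 stretches held 2 each.

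Endothelial transcripts differed widely in level per length in this tissue. On the scale of CPM per kb of annotated exon, Ece1 was the highest of the 34 genes (10.3 CPM per kb over all libraries), followed by Mcam (6.63), Plvap (5.04) and Nrp2 (3.74). Of the lymphatic genes, Lyve1 and Mmrn1 were the highest (2.85 CPM per kb each), while Flt4 (0.936 CPM per kb) and Reln (0.758 CPM per kb) lay low in the order. The lowest of the 34 was Aplnr, the receptor of apelin, at 0.290 CPM per kb. Several of the abundant genes are also made outside the endothelium: Ece1 in many cell types, Mcam in pericytes and smooth muscle, Nrp2 in neurons and smooth muscle, and Lyve1 in some macrophages. Of the 34 genes, 33 had at least 1 count in each of the 11 libraries, the endothelial junction genes Cdh5 and Pecam1 among them. In bulk tissue, fewer cells of a type and less RNA per cell cannot be told apart.

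**Figure D1:**
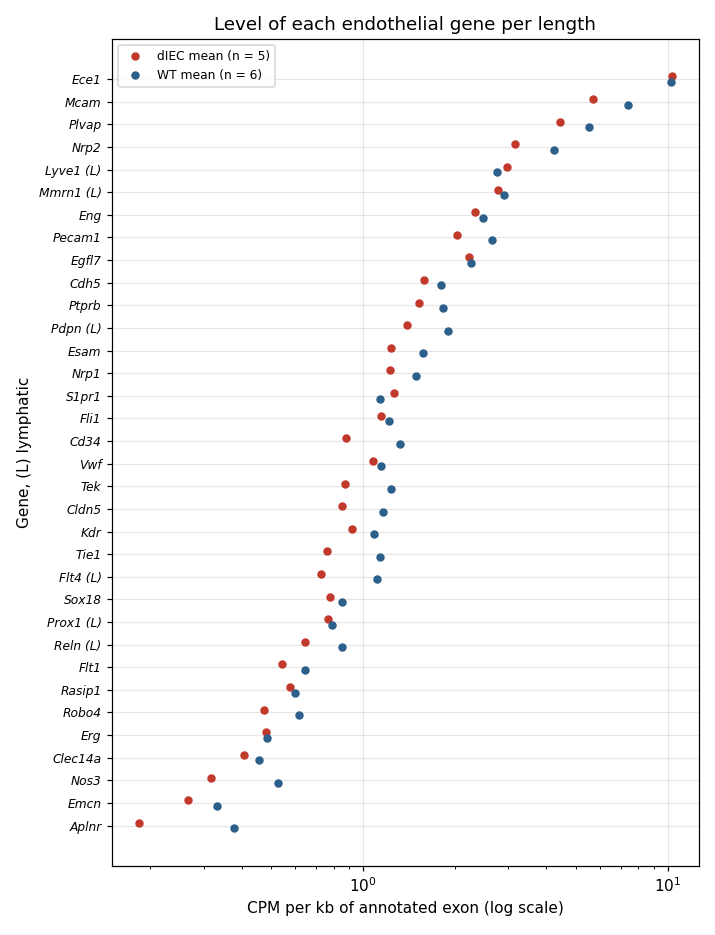
Mean level of the 34 reported endothelial genes in CPM per kb of annotated exon (horizontal log axis), with dIEC and WT means as separate points and lymphatic genes marked (L). Ece1 is at the top (10.3 CPM per kb over all libraries) and Aplnr at the bottom (0.290).

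No endothelial gene differed between dIEC and WT past the threshold of an adjusted p of 0.05. Of the 34 genes, 33 passed the filter on low counts, and edgeR's quasi-likelihood test gave adjusted p-values of 0.427 to 0.995. By the same test 1 of all 15911 genes tested was called (0.00628%), namely Mt1, a metallothionein (log2 fold change 2.76 ± 0.22 (SE), higher in dIEC, edgeR adjusted p = 0.000115). DESeq2 called 0 endothelial genes and 11 of 28125 genes in all (0.0391%). At an unadjusted edgeR p under 0.05, 7 of the 33 endothelial genes lay lower in dIEC and 0 higher, where 5.79% of all genes lay lower and 4.86% higher. The 7 were Cd34, Tie1, Mcam, Pecam1 and Nos3 of blood endothelium and Flt4 and Reln of lymphatic endothelium. With the ribosomal share of each library (26.2 to 49.2% of its counts) as a covariate, 2 of the 33 had an unadjusted edgeR p under 0.05, Pecam1 and Reln, both lower in dIEC, against 3.29% of all genes. With DESeq2, 5 of 34 genes had an unadjusted p under 0.05, against 6.19% of all genes.

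The log2 fold change lay below 0 for 30 of the 33 genes, against 51.2% of all genes tested. The median log2 fold change was -0.27 for the 27 blood endothelial genes tested (range -0.68 to 0.13) and -0.24 for the 6 lymphatic genes (range -0.62 to 0.11), beside -0.01 for all genes tested. The endothelial genes come from the same libraries, so their number is not a number of independent observations. CPM values of the groups overlapped for all 34 genes, while 0.333% of all genes had every dIEC library below every WT library and 0.233% every dIEC library above.

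**Figure D2:**
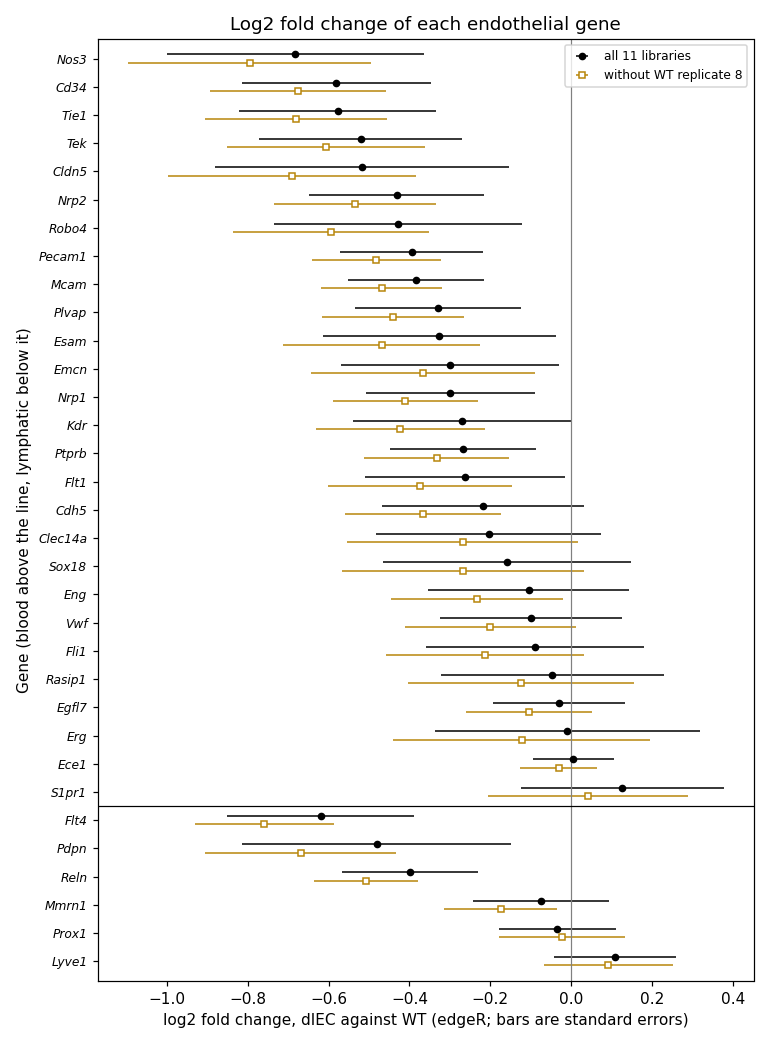
Log2 fold change of each of the 33 tested endothelial genes, dIEC against WT (edgeR), with standard errors, blood genes above the line and lymphatic genes below it. Filled circles use all 11 libraries and open squares leave out WT replicate 8; with all libraries 30 of the 33 genes lie below 0, and none passed an adjusted p of 0.05.

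The libraries differed in endothelial level within each group. The summed level of the 28 blood endothelial genes was 267, 228, 299, 293 and 220 CPM in dIEC replicates 1, 3, 5, 6 and 11, and ran from 207 to 407 CPM in WT libraries with a median of 307 CPM. The lymphatic sum was 56.4, 48.3, 55.9, 63.5 and 52.1 CPM in the same dIEC libraries, and ran from 42.7 to 77.9 CPM in WT libraries with a median of 64.0 CPM. WT replicate 8 had the lowest sum of both kinds among all 11 libraries, and WT replicates 2 and 4 the highest. Of the 34 genes, 16 were highest in WT replicate 4 and 13 in WT replicate 2, while 15 were lowest in WT replicate 8.

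The comparison depended on which libraries of either group were included. The median log2 fold change of blood endothelial genes was -0.38 without dIEC replicate 6, -0.21 without dIEC replicate 3 and -0.22 without dIEC replicate 11. Leaving out WT replicate 8, which was singled out after its values were seen, the median log2 fold change was -0.37 for blood endothelial genes and -0.34 for lymphatic genes. In that fit 31 of the 33 genes lay below 0, against 50.9% of all genes, and 14 had an unadjusted edgeR p under 0.05, all lower in dIEC, against 9.83% of all genes. It called 1 endothelial gene, Flt4, where 2.02% of 15794 genes tested were called. Leaving out WT replicate 2 or WT replicate 4, which had the highest endothelial levels, 0 endothelial genes were called, where 0.00631% of all genes were called without WT replicate 2 and 0.00642% without WT replicate 4. In each of these fits 0 blood endothelial genes and 1 lymphatic gene lay lower in dIEC at an unadjusted edgeR p under 0.05, against 4.03% of all genes without WT replicate 2 and 3.57% without WT replicate 4. The blood endothelial median was then -0.22 without WT replicate 2 and -0.20 without WT replicate 4, and 21 and 19 of 26 blood endothelial genes lay below 0, against 51.2% and 51.4% of all genes.

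**Figure D3:**
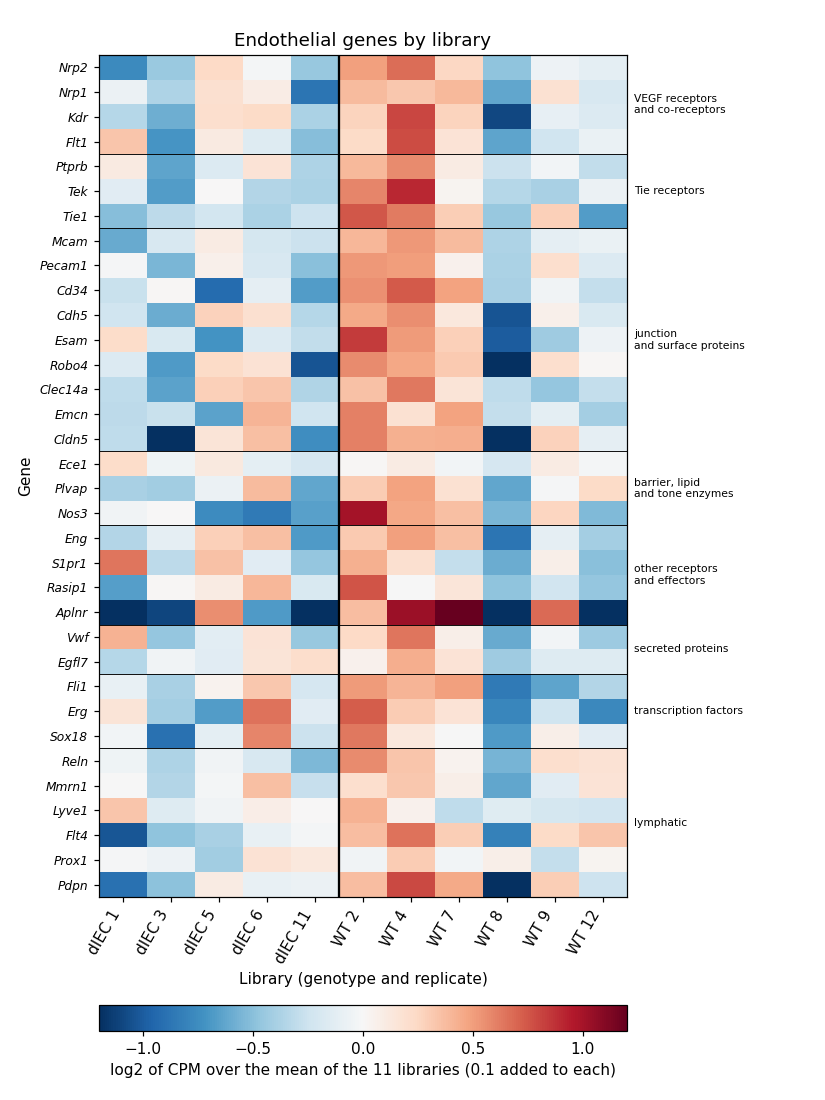
Log2 of the CPM of each of the 34 endothelial genes over its mean of the 11 libraries (colour; 0.1 CPM added to each), with dIEC libraries left of the vertical line and WT libraries right of it, and genes grouped by role. WT replicates 2 and 4 hold the highest value of most genes, and WT replicate 8 holds the lowest value of 15 of the 34.

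Flt4, the VEGF-C receptor of lymphatic vessels (chr11:49609263-49652739, plus strand), measured 3.74, 5.47, 5.88, 7.24 and 7.56 CPM in dIEC replicates 1, 3, 5, 6 and 11. The WT libraries ran from 4.36 to 12.2 CPM with a median of 9.62 CPM. All 5 dIEC libraries lay below the WT median, and the groups overlapped through WT replicate 8 alone, the next WT library standing at 9.07 CPM. The mean was 5.98 ± 1.53 CPM in dIEC and 9.15 ± 2.58 CPM in WT (SD, n = 5 and 6), a log2 fold change of -0.62 ± 0.23 (SE; edgeR adjusted p = 0.427). Without WT replicate 8, which was left out after its values were seen, it was -0.76 ± 0.17 (edgeR adjusted p = 0.0421). Over the 11 fits with 1 library left out, the edgeR adjusted p of Flt4 ran from 0.0421 to 0.713.

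Reln encodes reelin, a secreted glycoprotein made by lymphatic endothelium among other cells (chr5:21884454-22344702, minus strand). It measured 17.4, 13.9, 17.4, 15.7 and 12.4 CPM in dIEC replicates 1, 3, 5, 6 and 11, and from 12.2 to 26.7 CPM in WT libraries with a median of 20.5 CPM. Every dIEC library was below that median, and WT replicate 8 was the only WT library that did not exceed all 5 of them, the next WT library standing at 18.5 CPM. The log2 fold change was -0.40 ± 0.17 (SE; edgeR adjusted p = 0.441), and without WT replicate 8 it was -0.51 ± 0.13 (edgeR adjusted p = 0.0520). Flt4 and Reln were the 2 of 34 genes whose groups did not overlap once WT replicate 8 was left out, where 1.61% of all genes had dIEC wholly below WT.

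The other lymphatic genes included 3 whose log2 fold changes were smaller than their standard errors, which does not show that their levels were equal. Lyve1, the hyaluronan receptor of lymphatic capillaries (chr7:110850607-110863239, minus strand), measured 10.5, 7.49, 8.10, 8.82 and 8.38 CPM in dIEC replicates 1, 3, 5, 6 and 11, and from 6.73 to 11.2 CPM in WT libraries with a median of 7.36 CPM. The dIEC values lay inside the WT range, and all 5 lay above the WT median. WT replicates 7, 9 and 12 (6.73, 7.20 and 7.09 CPM) lay below every dIEC library. The log2 fold change of Lyve1 was 0.11 ± 0.15 (SE; edgeR adjusted p = 0.812), or -0.11 with scaling by library size alone, where the median of all genes was -0.22. Prox1 (chr1:190118035-190170714, minus strand) averaged 6.43 ± 0.993 CPM in dIEC and 6.63 ± 0.905 CPM in WT, a log2 fold change of -0.03 ± 0.14 (edgeR adjusted p = 0.947). Mmrn1, which encodes the secreted protein multimerin 1, averaged 16.3 ± 3.29 CPM in dIEC and 17.1 ± 3.60 CPM in WT, a log2 fold change of -0.07 ± 0.17 (edgeR adjusted p = 0.896). Pdpn, the membrane glycoprotein podoplanin, which fibroblasts also make, averaged 2.53 ± 0.669 CPM in dIEC and 3.44 ± 1.52 CPM in WT, a log2 fold change of -0.48 ± 0.33 (edgeR adjusted p = 0.588).

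**Figure D4:**
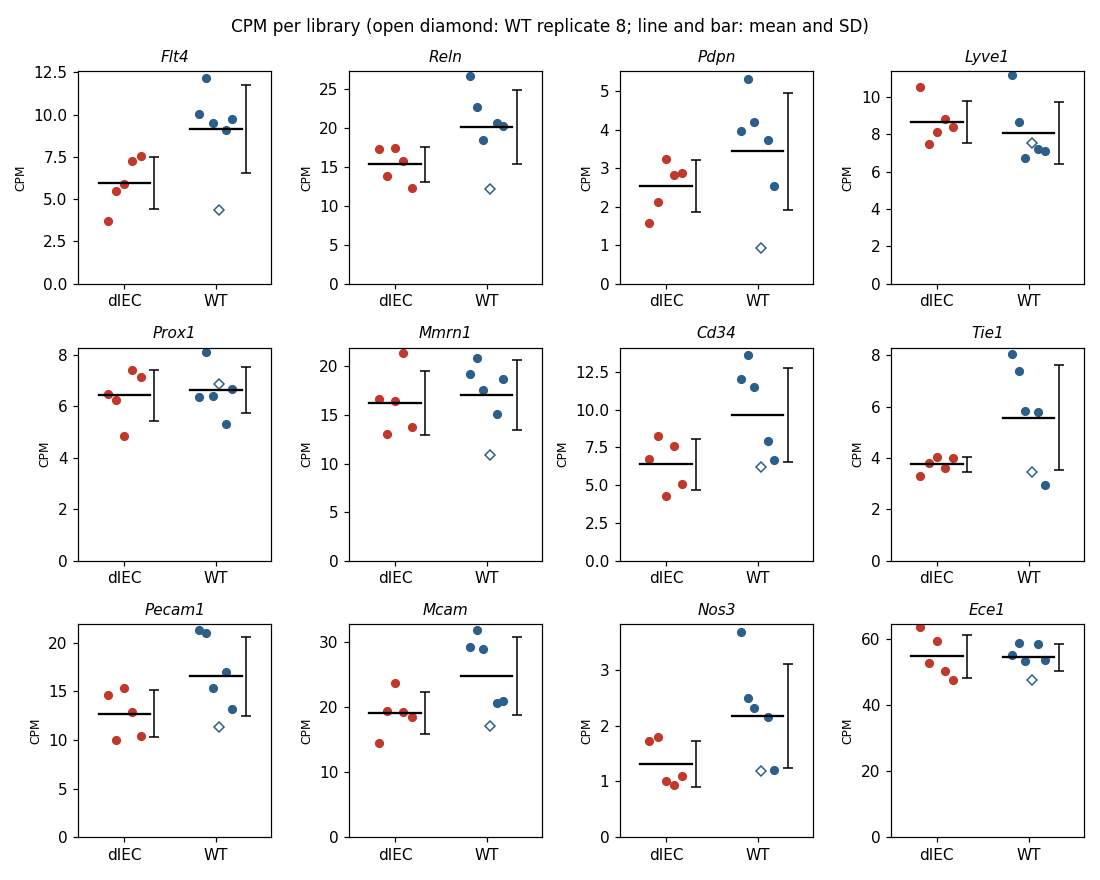
CPM per library (vertical axes from 0) of the 6 lymphatic genes, 5 blood endothelial genes with an unadjusted edgeR p under 0.05 and Ece1, dIEC left and WT right, with the mean as a line and the SD as a bar. In the Flt4 and Reln panels the open diamond, WT replicate 8, is the only WT library that does not exceed all 5 dIEC libraries, while the Prox1, Mmrn1 and Ece1 groups overlap broadly. In the Lyve1 panel all 5 dIEC libraries lie inside the WT range and above the WT median.

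Among the receptors and co-receptors of VEGF, all 4 genes had log2 fold changes below 0 (median -0.28), and 0 of 4 had an unadjusted edgeR p under 0.05. Over all genes tested, 51.2% lay below 0 and 5.79% lay lower in dIEC at that p. Nrp2, neuropilin 2, a co-receptor for VEGF-C and for semaphorins (chr1:62703285-62818695, plus strand), measured 26.0, 32.5, 52.3, 43.6 and 32.3 CPM in dIEC replicates 1, 3, 5, 6 and 11. It measured 31.7 to 70.8 CPM in WT libraries, with a median of 47.6 CPM. Of the dIEC libraries, 4 lay below the WT median, replicate 1 of them below every WT library, and replicate 5 lay above it. The log2 fold change of Nrp2 was -0.43 ± 0.22 (SE; edgeR adjusted p = 0.482). Kdr, the main signalling receptor of VEGF-A, averaged 8.29 ± 2.17 CPM in dIEC and 9.81 ± 3.90 CPM in WT (edgeR log2 fold change -0.27 ± 0.27). Flt1, a receptor that also traps VEGF-A, averaged 7.34 ± 2.17 CPM in dIEC and 8.67 ± 3.02 CPM in WT (-0.26 ± 0.25). Nrp1, neuropilin 1, averaged 12.04 ± 3.26 CPM in dIEC and 14.6 ± 3.63 CPM in WT (-0.30 ± 0.21). The edgeR adjusted p-values of these 3 genes were 0.591 to 0.722.

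Ratios of counts between receptors do not depend on the scaling of the libraries, and 4 were compared. The ratio of Flt4 to Kdr was 0.520, 0.907, 0.558, 0.676 and 1.08 in dIEC replicates 1, 3, 5, 6 and 11, and 0.765 to 1.197 in WT libraries. The lowest 3 dIEC values lay below every WT value, and the other two lay within the WT range. The mean ratio was 0.748 ± 0.239 in dIEC and 0.971 ± 0.156 in WT (SD, n = 5 and 6; two-sided exact permutation p = 0.104, adjusted over the 4 ratios 0.416). The ratio of Flt1 to Kdr averaged 0.908 ± 0.292 in dIEC and 0.918 ± 0.154 in WT (exact permutation p = 0.909, adjusted 0.909). The ratio of Tie1 to Tek averaged 0.938 ± 0.196 in dIEC and 0.991 ± 0.317 in WT (exact permutation p = 0.779, adjusted 0.909). The ratio of Nrp2 to Nrp1 averaged 3.21 ± 0.859 in dIEC and 3.44 ± 0.507 in WT (exact permutation p = 0.597, adjusted 0.909). These tests did not pass the threshold, which does not show that the ratios were equal.

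The 3 genes of the angiopoietin receptor group all had log2 fold changes below 0, with a median of -0.52, against 51.2% of all genes. An unadjusted edgeR p under 0.05 was found for 1 of them, against 5.79% of all genes lower in dIEC. Tie1, a receptor that acts together with Tie2 (chr4:118471191-118490061, minus strand), measured 3.31, 3.80, 4.05, 3.62 and 3.98 CPM in dIEC replicates 1, 3, 5, 6 and 11. It ranged from 2.94 to 8.05 CPM in WT libraries, with a median of 5.82 CPM. The dIEC libraries lay close together, below 4 of the 6 WT libraries and above WT replicate 12. The log2 fold change of Tie1 was -0.58 ± 0.24 (SE; edgeR adjusted p = 0.441), on 20 to 71 counts per library. Tek, the receptor itself, averaged 4.12 ± 0.744 CPM in dIEC and 5.83 ± 2.29 CPM in WT, a log2 fold change of -0.52 ± 0.25 (edgeR adjusted p = 0.472). Ptprb, the vascular endothelial phosphatase that restrains Tie2, measured 24.3, 14.5, 20.1, 25.2 and 17.4 CPM in dIEC replicates 1, 3, 5, 6 and 11, and from 18.3 to 33.3 CPM in WT libraries with a median of 23.1 CPM. Replicates 3 and 11 of dIEC lay below every WT library, and the log2 fold change was -0.27 ± 0.18 (edgeR adjusted p = 0.580).

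The junction and surface proteins formed the largest group, and all 9 had log2 fold changes below 0 (median -0.38), against 51.2% of all genes. Of the 9, 3 had an unadjusted edgeR p under 0.05, against 5.79% of all genes lower in dIEC. Cd34, a sialomucin of capillary endothelium that some fibroblasts also carry (chr1:194938819-194961279, plus strand), measured 6.76, 8.27, 4.26, 7.56 and 5.08 CPM in dIEC replicates 1, 3, 5, 6 and 11. It measured 6.21 to 13.6 CPM in WT libraries, with a median of 9.71 CPM. The highest 3 WT libraries lay above every dIEC library and the other 3 among them, and the log2 fold change was -0.58 ± 0.23 (SE; edgeR adjusted p = 0.433). Its upstream stretch is the first of those printed above, with 5 GGAA or TTCC cores.

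Pecam1, the adhesion molecule CD31 of endothelial junctions (chr11:106654217-106750628, minus strand), measured 14.7, 10.1, 15.4, 12.9 and 10.4 CPM in dIEC replicates 1, 3, 5, 6 and 11. Its WT values ran from 11.4 to 21.3 CPM with a median of 16.2 CPM. All 5 dIEC libraries lay below that median, 2 of them below every WT library, and the log2 fold change was -0.39 ± 0.18 (SE; edgeR adjusted p = 0.449). Mcam, the adhesion molecule CD146 (chr9:44134469-44142727, plus strand), measured 14.5, 19.4, 23.7, 19.2 and 18.5 CPM in dIEC replicates 1, 3, 5, 6 and 11, and from 17.2 to 31.8 CPM in WT libraries with a median of 24.9 CPM. Every dIEC library again lay below the WT median, and the log2 fold change was -0.38 ± 0.17 (SE; edgeR adjusted p = 0.444).

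The other 6 genes of the group had larger errors relative to their differences. Cldn5, the tight junction claudin of endothelium, averaged 1.21 ± 0.549 CPM in dIEC and 1.64 ± 0.626 CPM in WT (edgeR log2 fold change -0.52 ± 0.36). Robo4, a receptor that stabilises vessels, averaged 2.50 ± 0.912 CPM in dIEC and 3.26 ± 1.13 CPM in WT (-0.43 ± 0.31). Esam, an endothelial adhesion molecule, averaged 3.53 ± 0.8286 CPM in dIEC and 4.497 ± 1.95 CPM in WT (-0.33 ± 0.29). The remaining 3 lay closer to 0, with log2 fold changes of -0.30 ± 0.27 for Emcn (endomucin), -0.22 ± 0.25 for Cdh5 (VE-cadherin, the defining adherens junction protein) and -0.20 ± 0.28 for Clec14a, a surface lectin. Adjusted p-values of these 6 genes by edgeR were 0.592 to 0.807.

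The genes of the vessel wall's enzymes and barrier included the most abundant member. Ece1, which cuts big endothelin to the vasoconstrictor endothelin (chr4:137862237-137965229, plus strand), measured 63.5, 52.6, 59.4, 50.4 and 47.5 CPM in dIEC replicates 1, 3, 5, 6 and 11, and from 47.4 to 58.6 CPM in WT libraries with a median of 54.4 CPM. The dIEC libraries stood on both sides of the WT median, and the log2 fold change was 0.01 ± 0.10 (SE; edgeR adjusted p = 0.989), or -0.23 with scaling by library size alone, where the median of all genes was -0.22. Nos3, the endothelial nitric oxide synthase (chr5:24364810-24384474, plus strand), measured 1.73, 1.79, 1.01, 0.945 and 1.10 CPM in dIEC replicates 1, 3, 5, 6 and 11, and from 1.19 to 3.67 CPM in WT libraries with a median of 2.23 CPM. The dIEC libraries all lay below the WT median, and 3 of them lay below every WT library. The log2 fold change of Nos3 was -0.68 ± 0.32 (SE; edgeR adjusted p = 0.467), the lowest of the 33 genes, on 5 to 26 counts per library. Its exons share bases with an antisense gene and with Atg9b on the other strand, and the strand setting of the counting is not stated, so its value is uncertain. Plvap, the protein of the diaphragms of fenestrated capillaries, averaged 8.83 ± 2.62 CPM in dIEC and 10.997 ± 2.60 CPM in WT (log2 fold change -0.33 ± 0.21, edgeR adjusted p = 0.553).

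The 3 tested receptors and effectors of other pathways had a median log2 fold change of -0.05. Eng, endoglin, a co-receptor for BMP9 and TGF-beta, measured 7.62, 9.05, 11.95, 12.6 and 6.05 CPM in dIEC replicates 1, 3, 5, 6 and 11, and from 5.28 to 13.7 CPM in WT libraries with a median of 10.6 CPM. The dIEC values lay inside the WT range, and the log2 fold change was -0.10 ± 0.25 (SE; edgeR adjusted p = 0.904). S1pr1, the sphingosine 1-phosphate receptor, which lymphocytes also carry, averaged 3.85 ± 1.32 CPM in dIEC and 3.47 ± 1.01 CPM in WT, the highest log2 fold change of the 33 genes at 0.13 ± 0.25 (edgeR adjusted p = 0.878). With scaling by library size alone it was -0.12 for S1pr1, where the median of all genes was -0.22. Rasip1, a regulator of small GTPases in vessel tube formation, had a log2 fold change of -0.05 ± 0.28 (edgeR adjusted p = 0.966), and its exons overlap those of Izumo1 and of an antisense gene. Aplnr averaged 0.679 ± 0.540 CPM in dIEC and 1.40 ± 1.07 CPM in WT, and had no count in WT replicate 12. It did not pass the filter of the edgeR fit on all libraries. In the 8 alternative fits that tested it, its log2 fold change was -1.69 to -1.03 (-1.09 ± 0.71 with DESeq2) with adjusted p-values of 0.419 to 0.846 by edgeR or DESeq2. The lowest of these was without dIEC replicate 5 (1.62 CPM), the only fit of the 8 with an unadjusted p under 0.05.

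The 2 secreted proteins also differed little relative to their errors. Egfl7, a matrix protein of growing vessels, measured 6.33, 7.82, 7.29, 8.98 and 9.34 CPM in dIEC replicates 1, 3, 5, 6 and 11, and from 5.94 to 10.9 CPM in WT libraries with a median of 7.77 CPM. The dIEC values lay inside the WT range, and the log2 fold change was -0.03 ± 0.16 (SE; edgeR adjusted p = 0.960). Vwf, von Willebrand factor, averaged 17.3 ± 4.77 CPM in dIEC and 18.5 ± 5.89 CPM in WT (log2 fold change -0.10 ± 0.22, edgeR adjusted p = 0.898).

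The transcription factors were among the genes with the smallest log2 fold changes, with a median of -0.09 over 3 genes. Fli1, which leukocytes also make, measured 3.88, 3.13, 4.26, 5.20 and 3.57 CPM in dIEC replicates 1, 3, 5, 6 and 11, and from 2.25 to 5.93 CPM in WT libraries with a median of 4.36 CPM. The WT libraries split into 3 above and 3 below the middle of their range, with every dIEC library between their extremes. The log2 fold change was -0.09 ± 0.27 (SE; edgeR adjusted p = 0.928) for Fli1, -0.01 ± 0.33 (adjusted p = 0.995) for Erg and -0.16 ± 0.31 (adjusted p = 0.874) for Sox18, a factor of arterial and lymphatic specification. Sox17, below the reporting minimum, averaged 0.556 ± 0.237 CPM in dIEC and 0.905 ± 0.321 CPM in WT.

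A list of vascular growth and guidance factors, some of them ligands of the receptors above, held no call either. Of its 27 genes, 19 were tested and 16 had log2 fold changes below 0 (median -0.32), against 51.2% of all genes. An unadjusted edgeR p under 0.05 was found for 7, all lower in dIEC, against 5.79% of all genes, with 0 called. The 5 with the lowest p all had an edgeR adjusted p of 0.427. Of these, Fgf2, a mitogen of endothelium, averaged 3.63 ± 0.293 CPM in dIEC and 5.84 ± 1.53 CPM in WT (log2 fold change -0.69 ± 0.19). Bmp4, a ligand of the BMP family, averaged 3.27 ± 0.821 CPM in dIEC and 5.80 ± 1.86 CPM in WT (-0.87 ± 0.25). Slit2, a ligand of Robo receptors, averaged 10.6 ± 2.54 CPM in dIEC and 16.6 ± 5.20 CPM in WT (-0.66 ± 0.23), and the semaphorins Sema3a (-0.78 ± 0.25) and Sema3c (-0.48 ± 0.18), ligands of neuropilins, completed the 5. Vegfa, the ligand of Kdr and Flt1, was among the 3 with log2 fold changes above 0, at 20.6 ± 5.33 CPM in dIEC and 15.9 ± 3.42 CPM in WT (0.37 ± 0.18, edgeR adjusted p = 0.472). Vegfc, a ligand of Flt4, had a log2 fold change of -0.26 ± 0.23, and Vegfd, another, 0.18 ± 0.30 (edgeR adjusted p = 0.676 and 0.860). Without WT replicate 8, where 2.02% of all genes were called, Bmp4, Slit2 and Fgf2 were called by edgeR (adjusted p = 0.0370, 0.0400 and 0.0457). Of the 40 listed vascular signalling partners, 35 were tested and 25 had log2 fold changes below 0 (median -0.17), against 51.2% of all genes. An unadjusted edgeR p under 0.05 was found for 4, namely Cav1, Jag1, Plxnd1 and Notch1. All were lower in dIEC, against 5.79% of all genes, and 0 were called. Without WT replicate 8, Klf4 was called among these partners, higher in dIEC (log2 fold change 0.81 ± 0.17, edgeR adjusted p = 0.0400). The library left out had the highest Klf4 level of the WT libraries (98.7 CPM). It also had their highest summed level of the epithelial genes described below (4668 CPM). The part of the epithelium in the Klf4 value was not tested.

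Further lists of endothelial markers lay on both sides of 0. Over all genes tested, 51.2% lay below 0, and 5.79% lay lower and 4.86% higher in dIEC at an unadjusted edgeR p under 0.05. Of 38 other blood endothelial markers, 25 were tested and 18 had log2 fold changes below 0 (median -0.18). Tspan18, Cgnl1 and Ephb4 lay lower in dIEC and Efnb2 and Tspan7 higher at an unadjusted edgeR p under 0.05, and 0 were called, while the most abundant markers of the list were Car4 and Slco2a1, which epithelium also makes. Efnb2, the ephrin of arterial endothelium, averaged 49.2 ± 3.51 CPM in dIEC and 36.5 ± 9.53 CPM in WT (log2 fold change 0.43 ± 0.15), and epithelial cells also make it. Of 16 other lymphatic markers outside the 38 genes, 11 were tested and 8 had log2 fold changes below 0 (median -0.37). Gja1, Fxyd6 and Ccl21a lay lower in dIEC at an unadjusted edgeR p under 0.05, and 0 were called. The most abundant of the list were Maf and Fgl2. Ccl21a, the chemokine with which lymphatic vessels attract dendritic cells, had a log2 fold change of -0.52 ± 0.23 (edgeR adjusted p = 0.444). Without WT replicate 8, where 2.02% of all genes were called, Maf was called, higher in dIEC (edgeR adjusted p = 0.0349). The library left out had the highest Maf level of the WT libraries (202 CPM) and the lowest lymphatic sum (42.7 CPM). Which cells made the Maf transcripts was not tested.

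Genes of other cells of the gut wall also had log2 fold changes below 0, and those of the epithelium above 0. The share below 0 over all genes was 51.2%. At an unadjusted edgeR p under 0.05, 5.79% of all genes lay lower in dIEC and 4.86% higher. All 17 smooth muscle genes had log2 fold changes below 0 (median -0.40; most abundant Myh11 and Mylk), and their summed level was 1713 to 4197 CPM in dIEC libraries and 3026 to 6192 CPM in WT libraries. For fibroblast and matrix genes (most abundant Col3a1 and Fn1) 17 of 17 tested lay below 0 (median -0.73), 14 with an unadjusted edgeR p under 0.05, and the sum was 568 to 1075 CPM in dIEC and 641 to 1774 CPM in WT. For pericyte genes, led by Rgs5 and Abcc9, 7 of 7 lay below 0 with Mcam among them (median -0.47) and 6 of 6 without it (median -0.49), and the sum with Mcam was 185 to 316 CPM in dIEC and 173 to 496 CPM in WT. All 15 epithelial genes lay above 0 (median 0.28), with the most abundant being Lgals4 and Krt8 and sums of 3228 to 4410 CPM in dIEC and 2638 to 4668 CPM in WT, the highest in WT replicate 8. With scaling by library size alone, 11 of the 15 lay above 0, where 13123 of all 15911 genes tested lay below 0. At an unadjusted edgeR p under 0.05, Synpo2 and Casq2 of smooth muscle lay lower in dIEC, as did Rgs5 and Abcc9 of pericytes, with Col1a1, Col1a2, Lum, Dpt and Sparc the fibroblast and matrix genes of lowest p, while Cldn3 and Elf3 of epithelium lay higher, and 0 of them were called. Without WT replicate 8, left out after its values were seen, edgeR called 2.02% of all genes. Among them were Rgs5 of pericytes (adjusted p = 0.0471) and 4 fibroblast and matrix genes (Lum, Dpt, Pdgfra and Fbn1), all lower in dIEC. Also called were 4 epithelial genes (Krt20, Vil1, Cldn7 and Cdhr5), all higher. Without WT replicate 2 or WT replicate 4, each fit called 1 gene over all genes tested. WT replicates 2 and 4, highest in endothelial genes, were also highest in smooth muscle and fibroblast genes, and WT replicate 8 had the lowest fibroblast and pericyte sums of the WT libraries.

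**Figure D5:**
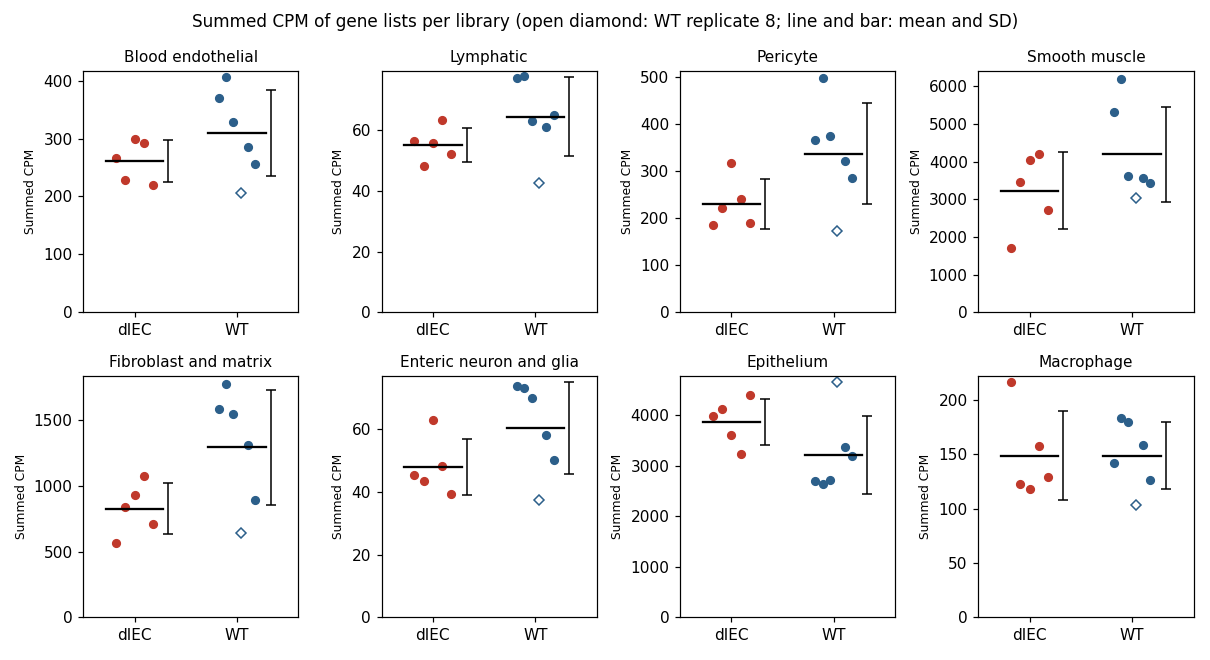
Summed CPM per library (vertical axes from 0) of the blood endothelial and lymphatic genes and of 6 lists of marker genes of other cell types, dIEC left and WT right, with the mean as a line and the SD as a bar. WT replicate 8, the open diamond, is lowest in WT for the endothelial, pericyte, smooth muscle, fibroblast, neuron and macrophage lists and highest for epithelium (4668 CPM).

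With the smooth muscle level of each library as a covariate in the edgeR fit, the median log2 fold change was -0.09 for blood endothelial genes and -0.04 for lymphatic genes. In that fit 19 of 33 endothelial genes lay below 0, against 52.1% of all genes, and 0 had an unadjusted p under 0.05, against 3.59% of all genes. The covariate, the mean log2 CPM of the smooth muscle genes, came from the same libraries and averaged 6.57 ± 0.56 in dIEC and 7.01 ± 0.41 in WT (SD, n = 5 and 6), so its part and that of the genotype cannot be told apart.

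Markers of further cell types, some of which share genes with the endothelium, were also measured. The shares over all genes were again 51.2% below 0, and 5.79% lower and 4.86% higher at an unadjusted edgeR p under 0.05. Macrophage genes, of which Mertk and Lyz2 were the most abundant, had a median log2 fold change of -0.05 over 12 tested genes, and summed to 118 to 216 CPM in dIEC and 103 to 183 CPM in WT. Platelet genes were near the limit of detection, with 8 of 9 below 1 CPM (most abundant Gp1bb and Itga2b), and summed to 7.40 to 19.98 CPM in dIEC and 8.05 to 12.1 CPM in WT. Erythroid genes, led by Hba-a1 and Hbb-bs, summed to 54.7 to 125 CPM in dIEC and 49.6 to 204 CPM in WT. T and B lymphocyte genes, led by Ptprc and Cd8a, had all 6 tested above 0 (median 0.51; Cd3e and Cd8a with an unadjusted edgeR p under 0.05), and summed to 41.6 to 66.9 CPM in dIEC and 31.0 to 51.3 CPM in WT. Neuron and glia genes, led by Ret and Nos1, lay below 0 for 12 of 13 tested (median -0.43; Snap25, Tubb3, Gal and Gfap with an unadjusted edgeR p under 0.05), and mesothelial genes, led by Upk3b and Upk1b, summed to 4.05 to 15.7 CPM in dIEC and 4.41 to 16.0 CPM in WT. The part of these cell types in the endothelial values was not tested.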

How the data were processed

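RNA of 11 distal ileum samples had been sequenced, 5 dIEC and 6 WT. Per the labels' protocols, Trizol lysates were purified on Direct-zol columns and made into strand-preserving NEBNext Ultra libraries. Reads had been aligned with TopHat2 to mm10, per the submitters' processing notes; the sources used here do not give the counter, its strand setting or its annotation. The authors deposited whole-number counts per gene, without normalization. Of 31169 table entries, 1 named no gene (0.00778 to 0.0147% of a library) and was left out.

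Each sample was placed by its genotype label. The design text writes Cre-negative for both groups. It counts 5 and 6 mice, so each library was taken as 1 mouse. A p-value here reflects only the spread among these libraries, since the labels name no cage, litter or batch. Replicate numbers are those of the sample titles. Counts of every pair of libraries within a group differed by more than sampling noise (chi-square over degrees of freedom, 10.7 to 72.4).

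Counts were fitted in R 4.3.3 with edgeR 4.0.16 (filterByExpr by group, 15911 genes, TMM scaling, robust quasi-likelihood F test, Benjamini-Hochberg over all genes, threshold 0.05). The fit was tested on simulated counts. Log2 fold changes are dIEC against WT, and the SE is their size over the square root of F. Alternatives were DESeq2 1.42.0, other scalings, no filter, covariates for smooth muscle level and ribosomal share, and leaving out each library. Ratios and H2-Ab1 were compared with SciPy 1.17.1 by exact permutation over all 462 splits. Coordinates and exon lengths came from GENCODE vM21 (GRCm38), where 99.2% of symbols occur. The genes and lists were chosen with earlier results of these data known. By rule, every reported endothelial gene is named, with values per library for those with an unadjusted p under 0.05 and for the highest per kb of each role, and from other lists at most 5 genes with an unadjusted p under 0.05 and the most abundant 2 of each marker list. Vegfa, Vegfc, Vegfd and the genes called in other lists without WT replicate 8 fall outside this rule and were chosen after their values were seen.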

Additional observations from a re-analysis of the deposited data

Results flagged for a closer look

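Each group of libraries was examined for a single library far from the others, by the gap to its nearest neighbour relative to the range of the group. Over 78 groups examined 3 libraries stood out, and chance alone gives about 1 in 20 groups. Aplnr measured 1.62 CPM in dIEC replicate 5, where the other dIEC libraries had 0.288 to 0.630 CPM. The ratio of Flt1 to Kdr was 1.42 in dIEC replicate 1, where the other dIEC libraries had 0.676 to 0.827. The same ratio was 1.22 in WT replicate 8, where the other WT libraries had 0.802 to 0.934.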

How the results depend on the processing

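No paired analysis was possible because the labels give no pairing of dIEC and WT mice. Over all genes, edgeR called 1 with all libraries, DESeq2 11, edgeR with library size alone 2, edgeR with the ribosomal share as a covariate 2, and edgeR with 1 library left out 1 to 319, the highest without WT replicate 8. Of the endothelial genes, 0 to 1 were called with 1 library left out, and 0 under every other alternative. The median log2 fold change ran from -0.38 to -0.20 (blood) and from -0.34 to -0.16 (lymphatic) with 1 library left out. Scaling by library size alone moved the median of all genes to -0.22 and the blood and lymphatic medians to -0.54 and -0.49, which lie 0.32 and 0.27 below it. With 1 library left out, dIEC minus WT ran from -0.31 to -0.17 for Flt4 to Kdr, from -0.14 to 0.050 for Flt1 to Kdr, from -0.13 to 0.051 for Tie1 to Tek, from -0.54 to 0.062 for Nrp2 to Nrp1 and from -64.0 to -51.2 CPM for H2-Ab1. For Flt4 to Kdr the exact permutation p ran from 0.0286 (without dIEC replicate 11) to 0.229 over these fits, not adjusted over the 4 ratios. With all libraries that p was 0.104, or 0.416 adjusted. Signs turned for uncalled genes, and the cause was not tested. With the smooth muscle covariate the log2 fold change was 0.090 for Kdr, 0.087 for Cdh5, 0.23 for Eng, 0.030 for Vwf, 0.15 for Egfl7, 0.26 for Erg, 0.19 for Fli1, 0.05 for Sox18, 0.28 for Rasip1, 0.13 for Clec14a, 0.012 for Prox1, 0.079 for Mmrn1 and -0.0045 for Ece1. With the ribosomal covariate it was 0.10 for Egfl7, 0.021 for Prox1, -0.025 for S1pr1 and -0.013 for Ece1. With library size alone it was -0.12 for S1pr1, -0.23 for Ece1 and -0.11 for Lyve1, beside a median of -0.22 for all genes in that fit. For Erg it was 0.0063 with DESeq2, 0.00048 with protein-coding scaling and 0.00052 with no filter. With 1 library left out it ran from -0.054 to 0.053 for Ece1, -0.10 to 0.074 for Egfl7, -0.23 to 0.023 for Eng, -0.23 to 0.17 for Erg, -0.21 to 0.028 for Fli1, -0.096 to 0.040 for Prox1, -0.18 to 0.14 for Rasip1, -0.078 to 0.24 for S1pr1, -0.40 to 0.035 for Sox18 and -0.25 to 0.060 for Vwf. Depth limits the scarcest genes: Nos3 rested on 5 to 26 counts per library.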
